A study of Homo sapiens with 4 samples.

Results

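Keratins are the intermediate filament proteins of epithelial cells, and 8 keratin genes were followed here: KRT7, KRT8, KRT10, KRT15, KRT17, KRT18, KRT19 and KRT80. They were taken by gene symbol, and the set was chosen by the read counts of KRT15, which were high in cells given trametinib and low when NBT was added. The pattern of KRT15 is therefore a description of the libraries and not a test. Of the 8 genes, 7 had a row among the 16834 genes of the expression table, and KRT19 was not analysed here. The table held 36 keratin genes in all, of which the other 29 served as the background of the family. MIA PaCa-2 is an established line of human pancreatic ductal adenocarcinoma (PDAC), a cancer with the features of pancreatic duct cells. The cells were left untreated (control) or were exposed for 12 h to 1 μM NBT (neobractatin, a natural compound of Garcinia bracteata), to 5 μM trametinib (an inhibitor of MEK, the kinase that activates ERK), or to both compounds together (combination). The labels give the genotype as wild type in all 4 conditions. Each condition was sequenced as 1 library, so no value below has a replicate check and the variation between cultures was not measured.

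A keratin filament is built from pairs of a type I (acidic) and a type II (basic) keratin, and a cell's set of pairs follows its kind of epithelium. KRT8 (type II) and KRT18 (type I) form the pair of simple epithelia such as pancreatic ducts, where KRT7 and KRT19 are added. KRT5 (type II) pairs with KRT14 or KRT15 (type I) in the basal layer of stratified epithelia, and KRT15 also marks stem cells of the hair follicle. KRT17, KRT16 (type I) and KRT6A (type II) are keratins of wounded or activated epithelium, and KRT17 is also used as a marker of basal-like PDAC. KRT10 (type I) belongs to differentiating epidermis, and KRT80 is a type II keratin linked to cell junctions and the cytoskeleton.

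Neighbouring type I keratins are much alike in sequence, and a read from a shared stretch cannot be given to 1 gene. The following sequences show where KRT15 can and cannot be told from KRT17, KRT14 and KRT16 (coding strand, 5′ to 3′, GENCODE v29 on GRCh38). Capitals mark the longest run that KRT15 shares with KRT17, a stretch of 47 bases at coding positions 322 to 368 of KRT15 that encodes the conserved start of the central rod. The run was present in all 4 genes.
KRT15: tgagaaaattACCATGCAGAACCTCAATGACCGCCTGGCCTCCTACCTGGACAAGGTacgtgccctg
KRT17: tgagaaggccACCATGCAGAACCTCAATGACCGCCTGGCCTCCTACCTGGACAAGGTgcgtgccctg
KRT14: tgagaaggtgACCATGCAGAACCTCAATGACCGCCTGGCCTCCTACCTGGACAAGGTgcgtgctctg
KRT16: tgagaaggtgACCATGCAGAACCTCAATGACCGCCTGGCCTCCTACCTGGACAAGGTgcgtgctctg

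The last 60 coding bases, which encode the variable tail, are shown for contrast. Of these bases of KRT15, the longest run found in KRT17 or KRT14 was 9 bases and in KRT16 it was 8 bases.
KRT15: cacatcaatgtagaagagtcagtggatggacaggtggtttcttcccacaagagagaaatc
KRT17: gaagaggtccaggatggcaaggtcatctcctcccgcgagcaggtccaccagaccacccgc
KRT14: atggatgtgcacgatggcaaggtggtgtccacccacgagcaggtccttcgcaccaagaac
KRT16: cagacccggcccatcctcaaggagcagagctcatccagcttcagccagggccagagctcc

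Over the aligned coding bases, with gaps left out, KRT15 was 74.6% identical to KRT17 (1273 bases), 73.8% to KRT14 (1351 bases) and 73.2% to KRT16 (1342 bases). When the coding sequence of KRT15 (1368 bases) was read in windows of 50 bases, 1.29% of the windows also occurred in a transcript of another gene, and at 100 bases no window did. The shared windows, 17 in number, all matched KRT13, which had between 2 and 7 reads in the 4 libraries. The length of the sequencing reads is not given in the sources used here. For KRT17, 17.2% of the 50-base windows and 0.418% of the 100-base windows occurred elsewhere, mostly in KRT17 pseudogenes, and 2.09% of the 50-base windows occurred in another keratin gene. KRT80 shared 1.22% and KRT10 shared 0.528% of their 50-base windows. KRT8 (45.6%) and KRT18 (58.0%) shared far more. KRT8 shared chiefly with its processed pseudogenes, and KRT18 with its pseudogenes and with transcripts of the overlapping KRT8 gene (26.3%). At 100 bases KRT8 shared 8.37% and KRT18 20.4%. Their counts could depend more on how reads were divided. Deposited KRT18 counts were whole numbers, however, and those of KRT8 lay at most 0.38 reads from one. The part of divided reads in them was not tested. KRT7 shared 13.5%, mainly with its antisense gene KRT7-AS. Untranslated parts were not compared.

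Deposited counts of KRT10 and KRT18 were whole numbers in every library, those of KRT15 lay at most 0.1 reads from a whole number, and those of KRT17 at most 0.5 reads. KRT14 reads were 2.11% of the KRT17 reads in untreated cells, 1.7% after NBT, 1.77% after trametinib and 1.75% after both. This share was nearly the same in all 4 libraries, and the part of divided reads in the KRT14 values was not tested. KRT15 reads were 22.1%, 13.6%, 20.1% and 2.32% of the KRT17 reads in the same order, so the ratio of these 2 genes differed most in the combination library.

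All genes of the type I family except KRT18 lie in 1 cluster on chromosome 17, and the type II genes lie with KRT18 in a cluster on chromosome 12. In GRCh38 (GENCODE v29), KRT15 is at chr17:41513743-41522529, KRT17 at chr17:41619441-41624842 and KRT10 at chr17:40818117-40822595, all on the minus strand and with 8 exons each in the transcript used. KRT7 is at chr12:52232520-52252186 on the plus strand, and KRT80 is at chr12:52168996-52192000 on the minus strand. KRT8 (chr12:52897187-52949954, minus strand) and KRT18 (chr12:52948871-52952901, plus strand) overlap at their ends. Whether the libraries kept the strand of the RNA is not given in the sources used here, so reads from the overlap cannot be told apart.

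The libraries held between 18776212 (control) and 19614763 (combination) estimated reads, and 3 reads corresponded to 0.153 to 0.16 CPM, a count scaled to library size. A gene is said to rise or fall between 2 libraries when the 2 counts, compared by a binomial test (exact, two-sided), had an adjusted value of at most 0.05 over all genes tested and the log2 ratio was at least 1 in size, which compares these libraries and not the conditions. Levels are given in TPM, which is scaled to gene length and to a fixed sum per library. Ranges after a log2 ratio are 95% intervals by the method of Clopper and Pearson, which hold the error of counting and nothing else. In RNA from whole cultures, fewer cells that express a gene and less RNA per cell cannot be told apart. As a check of the trametinib labels, 10 genes that report ERK signalling, such as DUSP6 (329 reads in the control, 521 in the NBT, 14 in the trametinib and 9 in the combination library), were examined. Against the control, each of the 10 was called lower in the trametinib library (2.15% of all genes) and in the combination library (3.69%). In the NBT library 1 of the 10 rose (1.6% of all genes) and none fell (1.01%). When the combination library was compared with trametinib, 3 of the 10 were called higher (2.56% of all genes) and 0 lower (3.55%). Their median log2 ratio was 0.53 in that comparison, beside -0.05 over all genes tested. DUSP6 was not called there (-0.66, -2.08 to 0.62). The markers of the line were less regular. EPCAM (242 TPM), CDH1 (85.4 TPM), CLDN4 (179 TPM) and SOX9 (31.6 TPM) were present in the control library, and KRT8 and KRT18 were abundant. MUC1 (1.84 TPM) and KRT7 (5.74 TPM) were low there. Of the mesenchymal markers, VIM reached 11.5 TPM, ZEB1 was at 1.38 TPM and CDH2 had 3 reads. KRT5 (1180 TPM) and TP63 (35.2 TPM), which were on neither marker list, were also present. MIA PaCa-2 is usually described as rich in vimentin and poor in E-cadherin, and the labels number the line MIA PaCa-3, MIA PaCa-4 and MIA PaCa-5 in the 3 treated libraries. The identity of the cells was not tested. Markers of leukocytes, endothelium, fibroblasts, acinar and islet cells had a row for 7 of 10 genes, none above 98 reads, and DCN, PRSS1 and INS were not analysed here. Of the 7, 3 rose with trametinib (3.82% of all genes) and 1 rose with the combination (4.73% of all genes) against the control. These were CD3E (0 reads in the control, 0 in the NBT, 55 in the trametinib and 29 in the combination library), which rose in both, VWF (3, 4, 25 and 6 reads), which also fell in the combination library against trametinib, and COL1A1 (45, 27, 98 and 53 reads). PTPRC had 8 to 17 reads, PECAM1 14 to 26, LUM at most 5 and CPA1 at most 1. The part of such cells in the keratin values was not tested.

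KRT8 and KRT18 were the most abundant keratins of the untreated cells, and KRT18 was called lower than the control in both libraries with trametinib and KRT8 in the combination library. KRT8 was at 3799 TPM in the control, 3151 TPM in the NBT, 2216 TPM in the trametinib and 1493 TPM in the combination library. KRT18 was at 3142, 2694, 1048 and 995 TPM in the same order. KRT15 was at 40.5, 18.6, 233 and 5.81 TPM. KRT15 was highest with trametinib and lowest with the combination, whereas KRT8 and KRT18 had their highest values in the control library.

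KRT17 followed the same order as KRT15 only in part, with 208 TPM in the control, 158 TPM in the NBT, 1313 TPM in the trametinib and 290 TPM in the combination library. KRT80 was at 90.0, 44.3, 103 and 52.8 TPM, so both libraries with NBT lay below both libraries without it. KRT10 was between 39.9 and 48.9 TPM in all 4 libraries and KRT7 was the lowest of the 7, between 2.25 and 5.74 TPM.

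**Figure D1:**
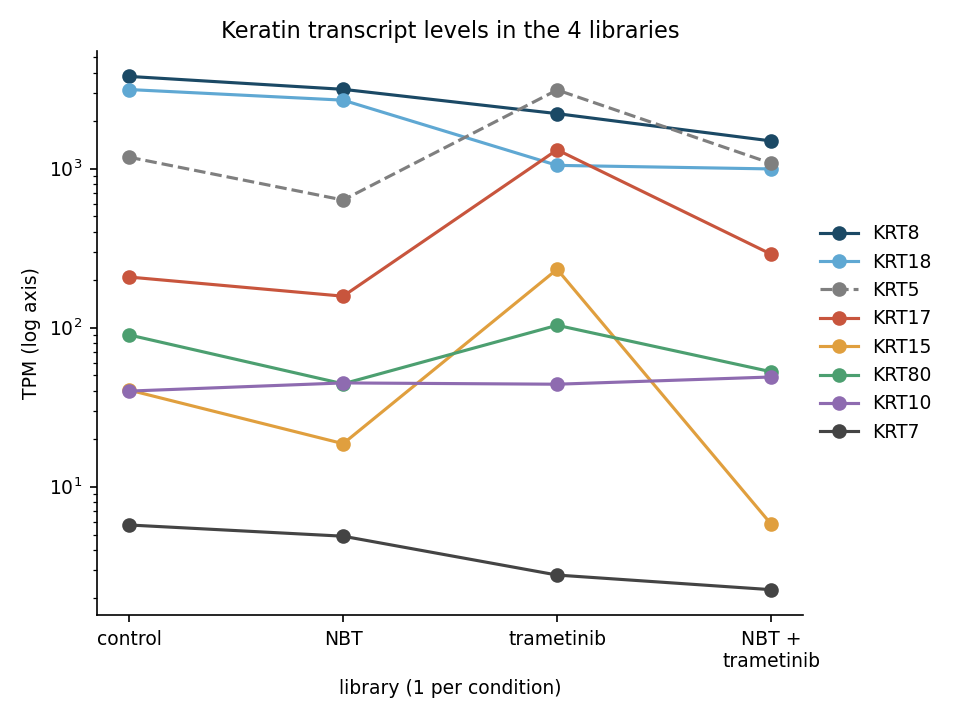
Level of 7 listed keratins and of KRT5 (dashed) in TPM on a log axis, with 1 point per library and 1 library per condition. KRT15 and KRT17 peak in the trametinib library (233 and 1313 TPM), and KRT15 has its lowest value, 5.81 TPM, in the combination library.

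In untreated cells the order of the levels was KRT8, KRT18, KRT5 and KRT17, and this order was the same with NBT. With trametinib KRT5 came first, followed by KRT8, KRT17, KRT18 and KRT15. In the combination library KRT8 was again first, followed by KRT5, KRT18 and KRT17. KRT10 and KRT15 were neighbours in the control library, at 39.9 and 40.5 TPM. Without replicates, it cannot be said which neighbours differ beyond the spread between cultures.

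The summed level of all keratin genes was 8537 TPM in the control, 6773 TPM in the NBT, 8178 TPM in the trametinib and 4010 TPM in the combination library. The sum with trametinib was near that of the control, and the make-up differed. KRT8 and KRT18 together took 81.3% of the keratin TPM in the control, 86.3% in the NBT, 39.9% in the trametinib and 62.0% in the combination library. KRT5, KRT15 and KRT17 together took 16.7%, 12.0%, 57.1% and 34.3%. The ratio of KRT8 to its partner KRT18 was 1.21 and 1.17 in the libraries without trametinib and 2.11 and 1.5 in those with trametinib alone and the combination.

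**Figure D2:**
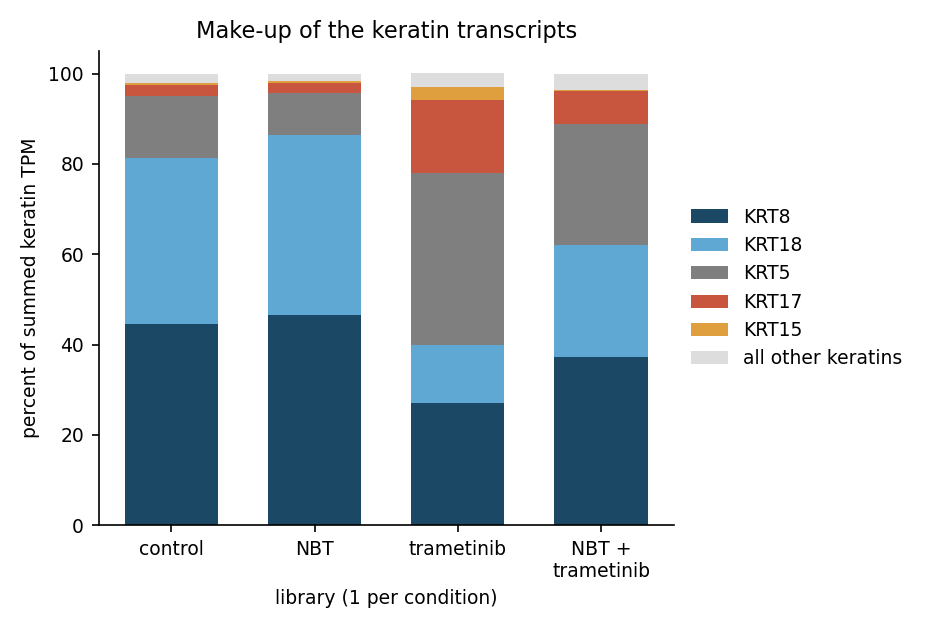
Share of the summed keratin TPM (percent, vertical axis) that each keratin took in each of the 4 libraries, stacked to the whole. KRT5 took 13.8% in the control and 38.2% in the trametinib library, KRT17 took 2.44% and 16.1%, and KRT15 stayed a minor part at 0.474% and 2.85%.

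The first comparison asked how trametinib alone altered the listed keratins. KRT17 rose from 2946 to 19093 reads, 6.42-fold (log2 ratio 2.68, 2.63 to 2.74). KRT18 fell from 41334 to 14162 reads (log2 ratio -1.56, -1.59 to -1.53). KRT15, chosen for this contrast, had 651 reads in the control and 3846 in the trametinib library, a 5.85-fold higher level (log2 ratio 2.55, 2.43 to 2.67). In this comparison 2 of the 7 listed keratins were called higher and 1 was called lower, and of all 16197 genes tested 3.82% were called higher and 2.15% lower.

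The remaining 4 keratins did not pass the limits with trametinib. KRT8 had a log2 ratio of -0.75 (-0.77 to -0.73), and KRT7, with 77 and 39 reads, had one of -0.99 (-1.59 to -0.42), just short of the limit. KRT80 was at 0.23 (0.16 to 0.29) and KRT10 at 0.17 (0.03 to 0.31). The median of the 7 log2 ratios was 0.17, beside 0.08 over all genes tested.

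With NBT alone, 6 of the 7 listed keratins lay within the log2 limit. KRT15 had 651 reads in the control and 330 in the NBT library, a log2 ratio of -1.03 (-1.23 to -0.84) that lay just past the limit with an interval on both sides of it, and it was the only listed keratin called, with 1 lower and 0 higher. The call was lost when a coefficient of variation of 0.2 between cultures was assumed in a negative binomial test. Of all 15888 genes tested, 1.6% were called higher and 1.01% lower. KRT80 lay just short of the limit, with 3332 and 1783 reads and a log2 ratio of -0.95 (-1.04 to -0.87). The other 5 ranged from -0.33 for KRT17 to 0.24 for KRT10, and the median of the 7 was -0.20, beside -0.01 over all genes.

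In the combination library the simple epithelial keratins fell against the control. KRT8 fell from 63594 to 26811 reads (log2 ratio -1.31, -1.33 to -1.29). KRT18 fell from 41334 to 14049 reads (log2 ratio -1.62, -1.65 to -1.59). KRT7 fell from 77 to 33 reads (log2 ratio -1.27, -1.92 to -0.68), a low count with a wide interval. KRT15 had 102 reads, 6.64-fold lower than the control (log2 ratio -2.73, -3.05 to -2.43), so 4 of the 7 were called lower and 0 higher. Among all 16229 genes tested 4.73% were called higher and 3.69% lower, and the median log2 ratio was 0.05 over all genes and -1.27 over the 7 keratins. KRT17 (0.52, 0.45 to 0.58), KRT10 (0.33, 0.20 to 0.47) and KRT80 (-0.73, -0.81 to -0.65) did not pass. With an assumed coefficient of variation of 0.2, KRT15 and KRT18 kept their calls and KRT7 and KRT8 lost theirs.

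**Figure D3:**
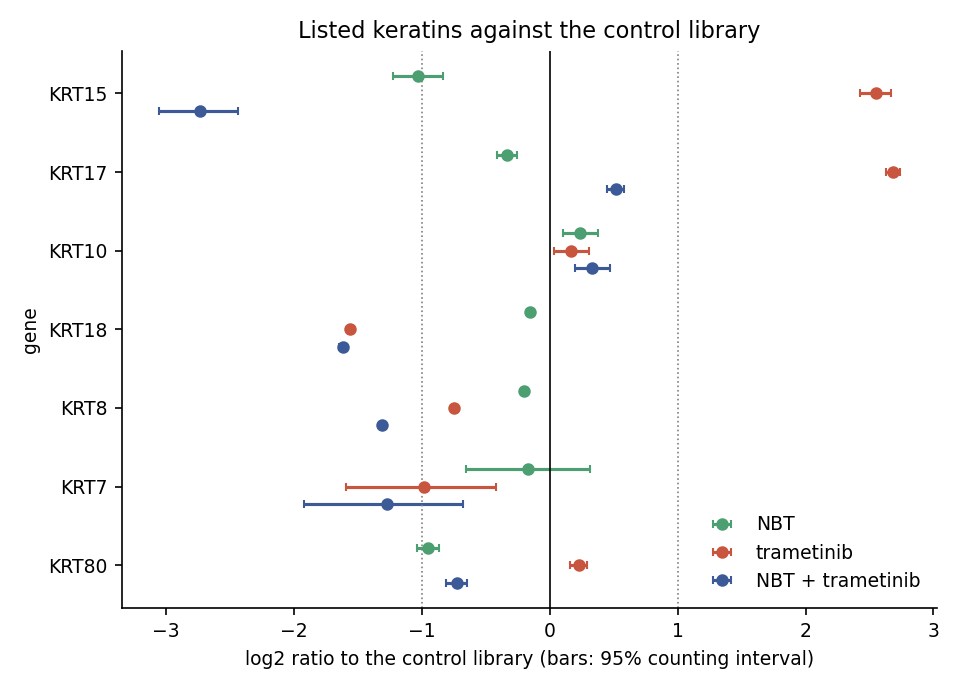
Log2 ratio of each treated library to the control library (horizontal axis) for the 7 listed keratins, with 95% counting intervals as bars and the limits of 1 and -1 dotted. KRT15 lies at 2.55 with trametinib and at -2.73 with the combination, while KRT8 and KRT18 lie below 0 in all 3 libraries.

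Set against trametinib alone, the combination library shows what accompanied the addition of NBT. KRT17 fell from 19093 to 4398 reads, 4.49-fold (log2 ratio -2.17, -2.22 to -2.12). KRT15 had 3846 reads with trametinib and 102 with the combination, a 38.8-fold lower level (log2 ratio -5.28, -5.58 to -5.0). These were the 2 listed keratins called lower, and 0 were called higher. Of all 16343 genes tested 2.56% were called higher and 3.55% lower. KRT18 hardly differed, with 14162 and 14049 reads (log2 ratio -0.06, -0.10 to -0.03). KRT80 (-0.95, -1.03 to -0.88) and KRT8 (-0.56, -0.58 to -0.53) were lower without passing the limit, and the interval of KRT7 (-0.29, -1.01 to 0.42) included 0.

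Set against NBT alone, the combination library shows what accompanied the addition of trametinib. KRT18 fell by 1.46 on the log2 scale, KRT8 by 1.11 and KRT7 by 1.11 (-1.76 to -0.50). KRT15 had 330 reads with NBT and 102 with the combination (log2 ratio -1.70, -2.04 to -1.38). Thus 4 of the 7 were called lower and 0 higher, and of all 16250 genes tested 2.38% were called higher and 1.99% lower. KRT17 was at 0.85 (0.78 to 0.92), KRT80 at 0.22 (0.13 to 0.32) and KRT10 at 0.10 (-0.03 to 0.22). The trametinib contrast of KRT15 therefore had opposite signs without and with NBT (2.55 and -1.70), which is the pattern it was chosen for, while that of KRT18 was -1.56 and -1.46. Here too KRT7 and KRT8 lost their calls at an assumed coefficient of variation of 0.2.

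The combination was also compared with the sum of the 2 single log2 ratios, as a description of how far each keratin departed from additivity. The sum for KRT15 was 1.52 and the observed value was -2.73, a departure of -4.25 (95% interval from counting errors, -4.59 to -3.91). KRT15 was the 7th lowest of 11367 genes with at least 50 reads in a library. KRT17 had a sum of 2.35 and a departure of -1.83 (-1.92 to -1.74), the 32nd lowest. Of these genes 1.43% departed by -1 or less and 0.897% by 1 or more. Because KRT15 was picked for this behaviour, nothing is read from its rank.

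The other 5 keratins lay near the sum. KRT8 departed by -0.35 (-0.38 to -0.33), and KRT18 by 0.09 (0.06 to 0.13). The departures of KRT80 (-0.12 to 0.11), KRT10 (-0.26 to 0.11) and KRT7 (-0.93 to 0.69) had intervals that included 0. For KRT80 the sum and the observed value were both -0.73.

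**Figure D4:**
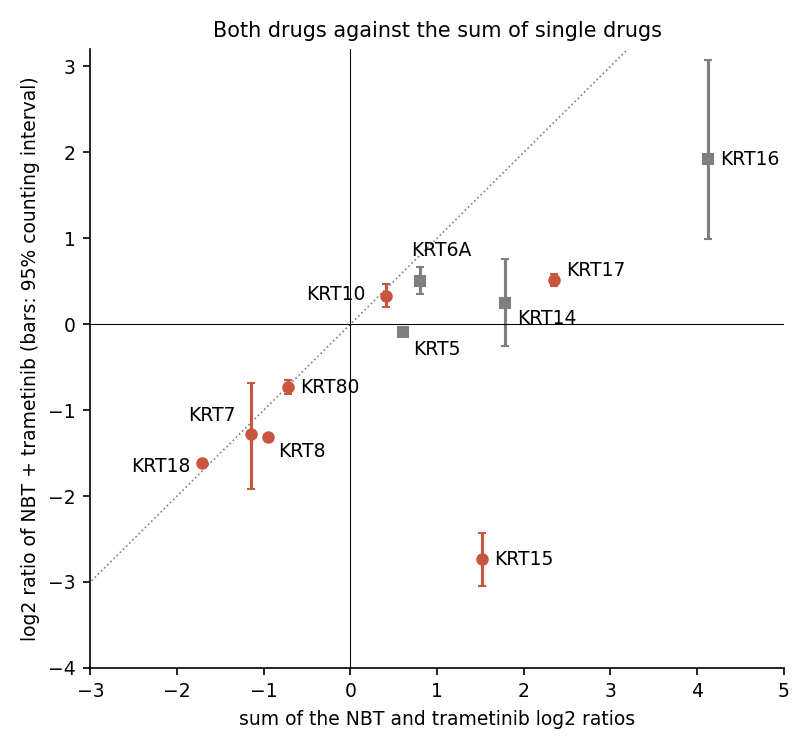
Log2 ratio of the combination library to control (vertical axis, 95% counting intervals) against the sum of the 2 single-drug log2 ratios (horizontal axis), with equality dotted, for 7 listed keratins (circles) and 4 other keratins (squares). KRT15 lies furthest below the line, with a sum of 1.52 and an observed value of -2.73, and KRT7, KRT8, KRT10, KRT18 and KRT80 lie close to it.

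Among the 29 other keratin genes, 4 had at least 100 reads in a library. KRT14 and KRT16 reached 100 reads in the trametinib library alone, so that limit by itself selected them for a high value there, and no count over the 4 is drawn from it. KRT5, the basal type II partner of KRT15, had 24906 reads in the control, 14518 in the NBT, 67741 in the trametinib and 24441 in the combination library. KRT6A had 549, 437, 1253 and 815 reads, KRT14 had 62, 41, 338 and 77 reads, and KRT16 had 11, 9, 253 and 45 reads. KRT5 and KRT6A, which reached 100 reads in every library, were called higher with trametinib (3.82% of all genes). KRT14 and KRT16 were also called higher, from which nothing is read because of the limit. Of 20 other keratins tested in the combination library against trametinib, 4 fell and 1 rose (3.55% and 2.56% of all genes). KRT5 fell there, as did KRT14 and KRT16 from their selected values, and KRT6A was not called. Of the 4 genes, KRT16 alone remained called higher than the control.

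The log2 ratios of these genes to the control were 1.43 (KRT5), 1.18 (KRT6A), 2.42 (KRT14) and 4.45 (KRT16) with trametinib. With the combination they were -0.09, 0.51, 0.25 and 1.92. KRT15, at -2.73, was the only one of the basal and activation keratins KRT5, KRT6A, KRT14, KRT15, KRT16 and KRT17 that was called lower than the control with the combination. Of the other keratins tested, 5 of 21 rose and 0 fell with trametinib (3.82% and 2.15% of all genes), the fifth being KRT9 (1 read and 12 reads). With NBT, 0 of 23 rose or fell (1.6% and 1.01% of all genes), and with the combination 2 of 23 rose and 1 fell (4.73% and 3.69%). KRT14 shared 24.6%, KRT16 23.9% and KRT6A 52.8% of their 50-base coding windows with other genes. At 100 bases the shares were 7.06%, 8.41% and 24.2%. The values of these 3 may therefore depend on how reads were divided.

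Along chromosome 17 the genes KRT13, KRT15, KRT19, KRT9, KRT14, KRT16 and KRT17 follow each other. KRT14, KRT16 and KRT17 rose with trametinib and KRT15 was higher, whereas KRT13 (7 reads in the control and 6 with trametinib) was not called and KRT9 rested on 1 and 12 reads. KRT10, which lies apart from these genes towards the other end of the cluster, varied least of the 7. On chromosome 12 the neighbours KRT6A and KRT5 were higher with trametinib, and the neighbours KRT8 and KRT18 were lower.

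**Figure D5:**
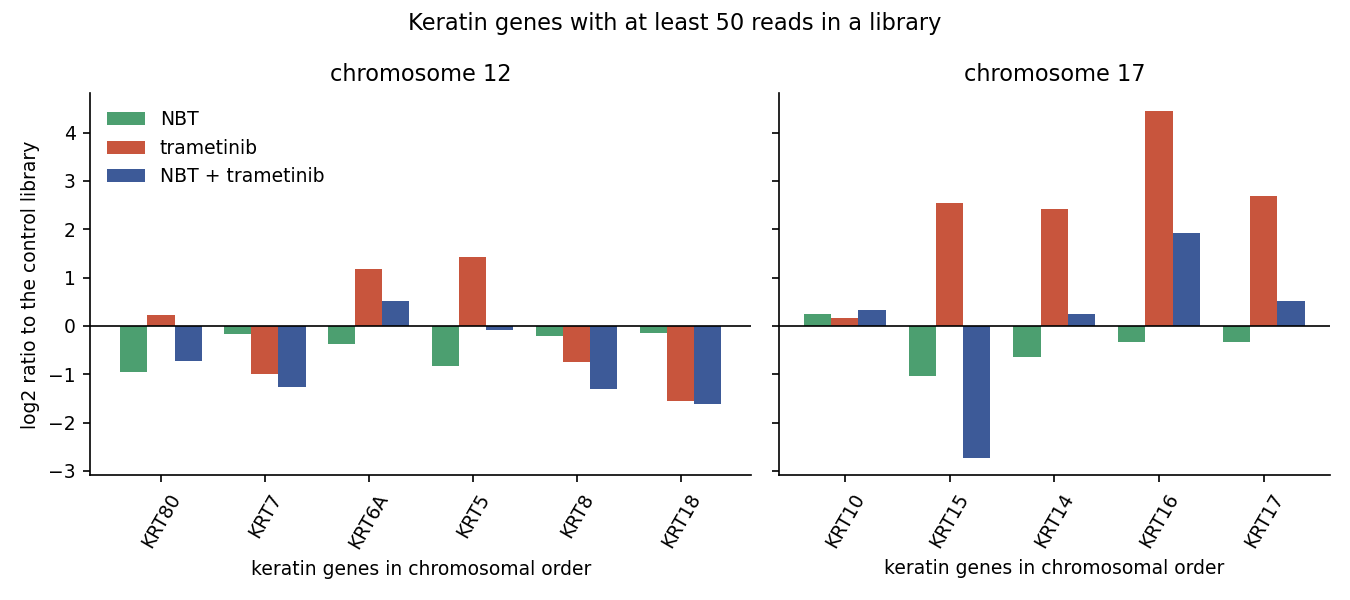
Log2 ratio to the control library (bars) of every keratin gene with at least 50 reads in a library, in chromosomal order on chromosomes 12 and 17, for NBT, trametinib and the combination (NBT + trametinib). KRT15, KRT14, KRT16 and KRT17 have tall trametinib bars (2.42 to 4.45), and the combination bar is deeply negative for KRT15 (-2.73). KRT16 reached 50 reads in the trametinib library alone, so the limit selected it for a high value there.

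The transcript table divided the reads of a gene among its RefSeq transcripts. KRT15 came almost entirely from NM_002275.4, with 636, 305, 3697 and 97.3 reads in control, NBT, trametinib and combination, which was 92.4% to 97.7% of the gene. KRT17 had 1 transcript. The pattern of the KRT15 gene was that of this transcript.

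The 2 main transcripts of KRT80 did not move together. Its transcript NM_182507.3 had 1941 reads in the control, 699 in the NBT, 2634 in the trametinib and 858 in the combination library. Its transcript NM_001081492.2 had 1306, 1024, 1190 and 1188 reads in the same order. The former had a log2 ratio of -1.52 (-1.65 to -1.40) with NBT and the latter one of -0.40 (-0.52 to -0.28), so the lower KRT80 level in both NBT libraries lay mainly in NM_182507.3. That transcript made up 58.2% and 67.0% of the gene without NBT, and 39.2% and 40.9% with it. The intervals leave out the error of dividing reads between transcripts.

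Proteins that anchor or bind keratin filaments were examined as lists, whose counts are to be read against the shares of all genes called: 3.82% higher and 2.15% lower with trametinib, 4.73% and 3.69% with the combination, and 1.6% and 1.01% with NBT. Of 19 genes for plakins, desmosomes and hemidesmosomes, which tie the filaments to the membrane, 4 rose and 1 fell with trametinib, 2 rose and 2 fell with the combination, and 0 were called with NBT, and the median log2 ratios were 0.57, 0.12 and -0.28. DSG3, the desmosomal cadherin of basal cells, had 642 reads in the control, 1099 in the NBT, 2719 in the trametinib and 3888 in the combination library. DSC2, a second desmosomal cadherin, had 346, 387, 785 and 850 reads. In the combination library against trametinib, 0 of the 19 genes were called (2.56% of all genes higher and 3.55% lower). The median log2 ratio of the 19 was -0.41 there, beside -0.05 over all genes. DSG3 was at 0.47 (0.40 to 0.54), and the interval of DSC2 (-0.08 to 0.21) included 0. PPL (-0.91, -1.01 to -0.81) and DSC3 (-0.21, -0.28 to -0.14), which had also risen with trametinib, were lower in that comparison.

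Genes of the hemidesmosome did not move together. ITGA6 had 6079 reads in the control, 7366 in the NBT, 1993 in the trametinib and 3563 in the combination library, and fell with trametinib. Its partner ITGB4 had 17404, 11756, 9639 and 6935 reads and PLEC, the plakin that links this integrin to keratins, had 38105, 27558, 23922 and 17418 reads. Both fell with the combination. COL17A1, the hemidesmosomal collagen, had 11345, 13320, 9614 and 10893 reads and was called in no comparison. DST, another plakin, had 4518, 3859, 5397 and 8167 reads and rose in the combination library against NBT.

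Of 10 genes for keratin-binding chaperones and adaptors, 2 rose with trametinib (3.82% of all genes), 1 with the combination (4.73%) and 0 with NBT (1.6%), and none was called lower. The median log2 ratios of the 10 were -0.04, 0.05 and -0.01. HSPB1, a small heat shock protein that binds intermediate filaments, had 4946 reads in the control, 6471 in the NBT, 18316 in the trametinib and 16947 in the combination library. SFN, the 14-3-3 protein of epithelial cells, had 8643, 8292, 19152 and 16739 reads. Of 11 other intermediate filament genes with a row, 1 rose with trametinib (VIM, with 202, 249, 425 and 500 reads), 2 rose with the combination and none fell against the control. SYNM, the gene for synemin, had 156, 114, 298 and 132 reads and fell in the combination library against trametinib.

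Of 17 epithelial transcription factor genes, 2 rose and 3 fell with trametinib (3.82% and 2.15% of all genes), 3 rose and 2 fell with the combination (4.73% and 3.69%), and 1 rose and 1 fell with NBT (1.6% and 1.01%). Their median log2 ratios were 0.37, 0.03 and -0.17, beside 0.08, 0.05 and -0.01 over all genes. ELF3, an ETS factor of epithelial cells, had 225 reads in the control, 94 in the NBT, 3502 in the trametinib and 417 in the combination library. It rose with trametinib (log2 ratio 3.94), fell with NBT (-1.30), and fell in the combination library against trametinib (-3.12), with 0.83 against the control. FOSL1, an AP-1 subunit, had 11889, 12386, 1268 and 4000 reads. SOX9, a factor of duct cells, had 1183, 1016, 169 and 201 reads, and both fell with trametinib and with the combination. Against trametinib, FOSL1 rose in the combination library (log2 ratio 1.61, 1.52 to 1.70), and SOX9 was not called (0.20, -0.10 to 0.50).

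The other named factors did not pass the limits with trametinib. KLF4 had 313, 741, 242 and 849 reads in control, NBT, trametinib and combination, and it rose with the combination and also with NBT. JUN had 2598, 3255, 1604 and 4619 reads and rose in the combination library against trametinib. GRHL1 had 119, 172, 203 and 311 reads and rose with the combination. TP63, which encodes the factor of basal epithelia and is named outside the rule after its values were seen, had 1565, 1576, 2863 and 1667 reads and passed the limits in no comparison.

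Genes of the cornified envelope, the end product of epidermal differentiation, were scarce. Of 16 such genes 10 had a row and 1, FLG, reached 100 reads, with 985 in the control, 584 in the NBT, 1120 in the trametinib and 517 in the combination library. FLG fell in the combination library against trametinib (log2 ratio -1.16). Of the 8 tested, none rose or fell with trametinib (3.82% and 2.15% of all genes). With NBT 2 of 8 fell (1.01% of all genes), both on low counts. These were CNFN (56 reads in the control and 20 in the NBT library) and CDSN (54 and 25 reads). Of 10 tested, 1 fell with the combination (3.69% of all genes).

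The genes whose log2 ratios to the control lay closest to those of KRT15 were sought among all genes with at least 50 reads in a library, by Euclidean distance over the 3 treated libraries. The nearest was RBBP8NL (distance 0.75), with 59 reads in the control, 23 in the NBT, 269 in the trametinib and 13 in the combination library. It was followed by PSAPL1 (0.88; 6, 3, 61 and 1 reads), ARHGEF19 (1.05; 18, 12, 65 and 4 reads), RAB26 (1.46; 33, 16, 208 and 14 reads) and SYT8 (1.63; 29, 13, 89 and 11 reads). All 5 had fewer reads than KRT15 in every library, and none was a keratin. PSAPL1, ARHGEF19, RAB26 and SYT8 reached 50 reads in the trametinib library alone, so that limit by itself selected them for a high value there. The search used the values KRT15 was chosen by, and the 3 log2 ratios share the control library, so the likeness is a description.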

How the data were processed

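RNA of 4 cultures, named MIA PaCa-2 in the sample titles, was sequenced on BGISEQ-500, 1 library per condition. The authors deposited estimated counts, TPM and FPKM per gene and transcript, and FPKM was not used. The submitters' processing notes name Bowtie2 2.2.5, RSEM 1.2.8 and hg38. Deposited counts lay more than 0.005 reads from a whole number in at least 1 library for 53.9% of genes, as happens when reads are divided between genes, and were rounded.

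Libraries were scaled to their totals with 0.5 reads added. Genes with a minimum of 1 count in 1 of the 2 libraries were tested with an exact two-sided binomial test with Benjamini-Hochberg adjustment. No p-value is given, since the test compares libraries. The steps were tested on simulated data.

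The keratins and gene lists were chosen with earlier results of these data known. From each list, at most 6 genes with a call and at least 100 counts were named, by largest log2 ratio. Some genes, among them COL17A1, PPL, DSC3, TP63, KRT9, KRT13, CNFN and CDSN, were named outside this rule. Intervals cover counting error only, because each condition was 1 library. PCR copies of a molecule are not independent, and the intervals take no account of this. Windows and sequences came from GENCODE v29. Alternatives were TMM (edgeR 4.0.16), median-of-ratios (DESeq2 1.42.0), TPM, other limits, and edgeR's negative binomial test. R 4.3.3, Python 3.11.15, scipy 1.17.1 and pandas 2.3.3 were used.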

Additional observations from a re-analysis of the deposited data

Results flagged for a closer look

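KRT15 had opposite directions in the same contrast, the addition of trametinib. Without NBT its log2 ratio was 2.55 (651 and 3846 reads), and with NBT it was -1.70 (330 and 102 reads). The difference was not tested, since each condition was 1 library, and KRT15 was chosen for this pattern.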

How the results depend on the processing

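With 1 library per condition, no culture could be left out, and variation between cultures is the main limit. No paired analysis was possible because no condition had a second library. No listed keratin changed sign in any comparison under TMM, median-of-ratios or TPM scaling or with 5 added reads. Summed transcript counts gave the same log2 ratios, and a minimum of 10 counts does not enter a ratio, so neither could change a sign. Over the main setting, the other scalings and 5 added reads, KRT15 ranged from 2.47 to 2.55 with trametinib. It ranged from -2.78 to -2.68 with the combination, and from -4.25 to -4.18 in its departure. KRT7 was called lower with trametinib under all 3 other scalings, and KRT80 was called lower with NBT under TPM (2 keratins called). In the order NBT, trametinib and combination against control, combination against trametinib and combination against NBT, the genes called were 414, 966, 1366, 998 and 709. They were 116, 352, 401, 252 and 251 with a log2 limit of 2, and 5635, 6915, 8056, 7428 and 6079 with none. Under a negative binomial test they were 69, 365, 547, 302 and 204 at an assumed coefficient of variation between cultures of 0.2, and 4, 22, 51, 14 and 13 at 0.4. Listed keratins called were 0, 2, 1, 2 and 0 with a limit of 2, 6, 7, 7, 6 and 6 with none, 0, 3, 2, 2 and 2 at 0.2, and 0, 0, 0, 1 and 0 at 0.4, where the 1 call was KRT15 in the combination against trametinib.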
